A study of Mus musculus with 6 samples.

Results

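Molecular motors are enzymes that turn ATP hydrolysis into movement along the cytoskeleton. Kinesins and dyneins walk on microtubules, most kinesins towards the plus end and dyneins towards the minus end, whereas myosins pull on actin filaments. In steroid-making cells these motors are known to position mitochondria, endosomes and lipid droplets, and they separate the chromosomes and the daughter cells at division. The genes described here are those whose symbol in the authors' peak table was that of a kinesin heavy chain (Kif and Kifc), a cytoplasmic dynein subunit (Dync1 and Dync2), a numbered axonemal dynein heavy chain (Dnah), an unconventional myosin (Myo), or a nonmuscle or smooth muscle class II myosin heavy chain (Myh9, Myh10, Myh11 and Myh14). The choice was made by name and used no measured value, though results of the table were known when it was made. It found 504 of the 55449 peaks, in 56 of the 10818 genes of the table, namely 28 kinesin, 7 dynein and 21 myosin genes. Heavy chains of sarcomeric muscle myosin and the dynein light chains fall outside this choice.

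The peaks came from eCLIP, which crosslinks proteins to RNA with ultraviolet light, recovers 1 protein with its antibody and sequences the RNA fragments attached to it. All libraries came from MLTC-1, a single mouse Leydig cell tumour line, crosslinked at 254 nm and 400 mJ per cm2. The antibody against ZFP36L2, a zinc finger protein of a family known to bind AU-rich elements and to speed mRNA decay, gave 2 immunoprecipitation libraries with 2 inputs. Rabbit IgG, the negative control antibody, gave 1 immunoprecipitation library with 1 input, where an input is a background of RNA bound by all proteins. No group carried a knockout, an overexpressed protein or a hormone treatment. The labels do not say whether separate cultures were used for the libraries.

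The table held 1 log2 fold change of ZFP36L2 over IgG, 1 p-value and 1 adjusted p-value for each peak, and no value of a single library. The depth behind a peak is therefore unknown, and no spread between libraries can be shown. A peak is called enriched here when the authors' adjusted p was under 0.05 and the log2 fold change was 1 or more, and depleted when the adjusted p was under 0.05 and the log2 fold change was -1 or less. Because IgG had 1 immunoprecipitation library, an effect of the antibody and of that library cannot be told apart. Over all peaks the median log2 fold change was -1.06, so a peak at 0 stood above the middle of the table. Positions are on mouse build mm10. Of the 10 Leydig cell markers looked up, 6 had a peak, and Cyp11a1, the first enzyme of steroid synthesis, was enriched in 33 of 35 peaks. Of the other 5 markers, Lhcgr had 1 of 16 peaks enriched and Prlr 1 of 20, while Star (3 peaks), Nr5a1 (6) and Scarb1 (13) had none. No peak carried the names Insl3, Cyp17a1, Hsd3b1 or Hsd3b6, which are also Leydig cell genes.

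Enriched peaks lay in 4 motor genes. Dync1h1, the heavy chain that carries the motor domain of cytoplasmic dynein, had 3 of them, and Myh9, the heavy chain of nonmuscle myosin IIA, had 2. Myo10, the myosin that travels to the tips of filopodia, and Myo18b, a myosin of striated muscle needed to build sarcomeres, had 1 each. Depleted peaks lay in 6 genes, with 4 in Kif13b, a kinesin that carries membrane cargo, and 3 in Myo7a, the myosin of inner ear hair bundles and pigment cells. Dync1h1, Myo18b, Dync1li2 and Myo1c had 1 depleted peak each.

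In all, 7 of 504 motor peaks (1.39%) were enriched, against 2.22% of all peaks, and 11 (2.18%) were depleted, against 5.44% of all peaks. By gene, 4 of 56 had an enriched peak, against 5.04% of all genes in the table, and 6 of 56 had a depleted peak, against 17.3% of all genes. No test of these shares was made, since the genes were chosen with results of the table known. At an adjusted p under 0.01 the counts dropped to 4 enriched peaks in 2 genes and 7 depleted peaks in 4 genes. These were 0.794% and 1.39% of motor peaks, against 1.9% and 3.36% of all peaks at that threshold. Before adjustment, 9 motor peaks had a p under 0.05 with a higher value in ZFP36L2 (2.94% of all peaks did) and 32 with a lower one (11.2% of all peaks did). The remaining 48 genes had no called peak. Called values were large, the smallest being 2.70 in size. Even so, 10 peaks of that size or more were not called, as their adjusted p was not under 0.05.

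Motor genes had more peaks than most, with a median of 6 per gene against 3 over all genes. Among genes with 20 or more peaks, 109 of 346 (31.5%) had an enriched peak and 203 (58.7%) a depleted one. Of the 9 motor genes with 20 or more peaks, which together held 226 peaks, 3 had an enriched peak and 3 a depleted one. The other 5 of those 9, Kif1c, Myh10, Myo9b, Kif1b and Myo18a, had neither.

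The motor peaks lay mostly in coding sequence, which held 303 of them (60.1%) against 37% of all peaks. Introns held 165 (32.7% against 42.3%), 3′ UTRs 27 (5.36% against 13.6%) and 5′ UTRs 9 (1.79% against 2.21%). Within coding sequence, 5 motor peaks (1.65%) were enriched against 2.35% of all coding peaks, and 5 (1.65%) were depleted against 3.74%. In introns, 2 motor peaks (1.21%) were enriched against 2.17% of all intronic peaks, and 5 (3.03%) were depleted against 7.04%. The median log2 fold change of coding motor peaks, -0.71, was close to the -0.72 of all coding peaks, and that of intronic motor peaks was -1.10 against -1.31.

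**Figure D1:**
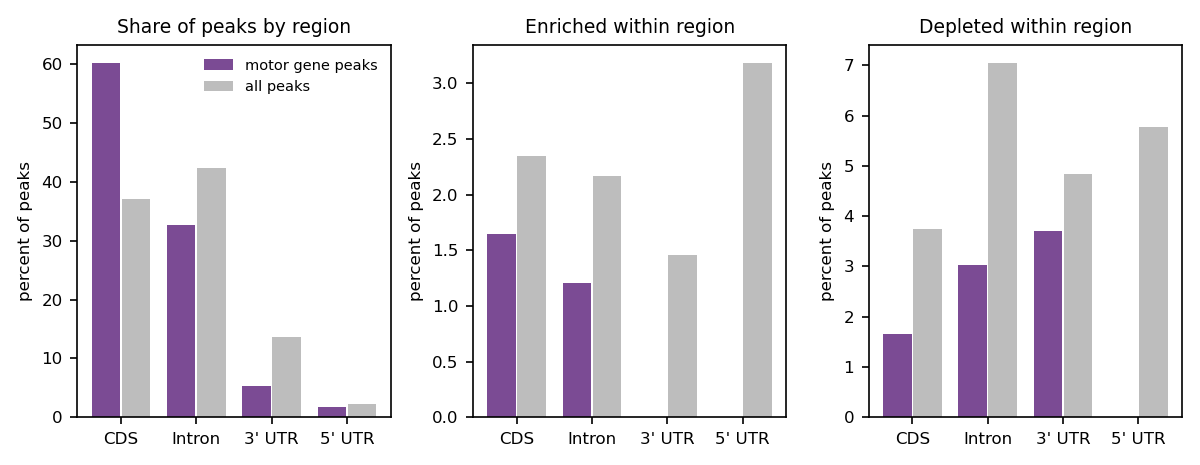
Bars give the percent of peaks for motor genes (purple) and for all peaks of the table (grey) in 4 transcript regions: left, the share of peaks in each region; middle and right, the share of a region's peaks that were enriched or depleted. Coding sequence held 60.1% of motor peaks against 37% of all peaks, and no motor peak in a 3′ UTR or a 5′ UTR was enriched.

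The 3′ UTR is where ZFP36 family proteins are best known to bind. The 27 motor peaks there belonged to 16 genes and ranged from -2.94 to 1.06 by the authors' deposited table. None was enriched (1.46% of all 3′ UTR peaks were), 1 was depleted (4.83% of all), and 4 were above 0. At an unadjusted p under 0.05, 0 of the 27 were higher. The highest were 2 touching peaks of Dync1li2, at 1.06 and 0.78, followed by 1 peak each of Myo1c at 0.58 and Myo18a at 0.52, by the authors' deposited table. None of these was called. The 9 peaks in 5′ UTRs, all of kinesin genes, ranged from -2.84 in Kif13a to 0.93 in Kif1c by the authors' deposited table. None of the 9 was enriched or depleted, against 3.18% and 5.78% of all 5′ UTR peaks, and 1, that of Kif13a, had an unadjusted p under 0.05. The letters under the peaks were not examined, so no motif is reported.

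Among the dyneins, cytoplasmic dynein moves cargo towards the cell centre and pulls on the mitotic spindle. Dync1h1 had 26 peaks, 21 coding and 5 intronic, along a RefSeq gene of 65550 nucleotides at 110601395 to 110666944 on the plus strand of chromosome 12. Its 2 strongest peaks were coding and lay 634 nucleotides apart with no other peak between them. The one at chr12:110630542-110630571 reached 5.10 on the log2 scale (adjusted p = 3.2e-13) by the authors' deposited table, the highest value of any motor peak. Its neighbour at chr12:110629874-110629907 had 4.43 (adjusted p = 5.2e-11) by the same authors' deposited table. Both lie about midway along the gene, 29.16 and 28.50 kb from its 5′ end.

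The third enriched peak of Dync1h1 was intronic, at chr12:110663597-110663632 near the 3′ end, with 2.77 (adjusted p = 0.028) by the authors' deposited table. Between them, at chr12:110639889-110639916, a coding peak was depleted at -3.04 (adjusted p = 1.8e-04) by the authors' deposited table. The remaining 22 peaks of Dync1h1 were not called and lay between -1.36 and 1.65. Dync1h1 thus had a few strong local peaks in both directions on a transcript whose median, -0.07, was near 0 as deposited.

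The other dynein genes had few peaks. Dync1li2, a light intermediate chain that links dynein to its cargo adaptors, had 8 peaks with a median of 0.11. Its depleted peak, intronic and only 8 nucleotides long at chr8:104423563-104423570, had -2.96 (adjusted p = 0.035) by the authors' deposited table. Of its other 3 intronic peaks, 2 stood at -2.69 and -2.11 and 1 at 0.69 and none was called, while both 3′ UTR peaks were above 0 by the authors' deposited table. The paralogue Dync1li1 had 1 peak (-0.87), which lay outside the RefSeq gene, and Dync1i2, an intermediate chain of cytoplasmic dynein, had 1 (0.81), by the authors' deposited table. Dync2h1, the heavy chain of the dynein that returns cargo from the tips of cilia, had 3 peaks at -2.12, -0.95 and -0.87 by the authors' deposited table. Axonemal dyneins bend cilia and sperm tails. Of their 12 RefSeq heavy chain genes matched by the rule, Dnah2 and Dnah6 had 2 intronic peaks each, from -2.47 to -1.72 by the authors' deposited table. None of these was called.

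Class II myosins form bipolar filaments that contract actin networks. Myh9 had 30 peaks, 18 coding and 12 intronic, along 81591 nucleotides at 77760585 to 77842175 on the minus strand of chromosome 15. Its 2 enriched peaks touch and are coding. The longer one, at chr15:77767202-77767313, had 3.93 (adjusted p = 2.0e-21) by the authors' deposited table, the smallest adjusted p of all motor peaks and number 145 of the 1231 enriched peaks by adjusted p. The shorter one, at chr15:77767174-77767201, had 2.85 (adjusted p = 3.4e-09) by the authors' deposited table.

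These belong to a run of 4 touching coding peaks that covers 186 nucleotides, 77767128 to 77767313. Read from the 5′ to the 3′ side of the transcript, its values were 3.93, 2.85, 0.95 and 0.73 by the authors' deposited table, so the 5′ part of the run was enriched and the 3′ part was not called. The next peaks on either side, at 0.49 and 1.31 by the authors' deposited table, were not called. The run lies near the 3′ end of the gene, its longest peak 74.92 kb from the 5′ end. Myh9 had the highest median of the 23 motor genes with 8 or more peaks, 0.70, with 21 of 30 peaks above 0 and 27 above the median of all peaks. Its intronic peaks had a median of 0.94 and its coding peaks 0.62.

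The paralogues of Myh9 had no called peak. Myh10, the heavy chain of nonmuscle myosin IIB, had 24 peaks from -2.96 to 1.53 with a median of -0.71, and its lowest, coding, just missed the threshold (adjusted p = 0.051 by the authors' deposited table). Myh14, the heavy chain of nonmuscle myosin IIC, had 8 coding peaks, all below 0, from -2.64 to -0.10 by the authors' deposited table. Myh11, the heavy chain of smooth muscle myosin, had 2 coding peaks at -2.30 and -2.21 by the authors' deposited table. Differences between these paralogues were not tested, as the table holds no spread between libraries. The sources used here do not say how reads that fit several related genes were counted.

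Myo18a and Myo18b encode myosin-like proteins with little or no motor activity of their own. Myo18b had the most peaks of any motor gene, 34, of which 32 were coding. The labelled source is a testicular line, while Myo18b is known from heart and skeletal muscle. Its enriched peak, coding, at chr5:112879415-112879503, had 2.70 (adjusted p = 0.026) by the authors' deposited table. A depleted coding peak, at chr5:112874875-112874951, had -3.33 (adjusted p = 0.002) by the authors' deposited table. Both lie in the first part of the gene, 17.00 and 21.55 kb from its 5′ end, with 1 uncalled peak at -1.92 between them. The other peaks of Myo18b ranged from -3.08 to 1.08 around a gene median of -1.11. All 14 cardiac and skeletal muscle markers looked up had peaks in this table, 939 in all with a median of 0.22. Of these, 35 (3.73%) were enriched and 4 (0.426%) depleted, against 2.22% and 5.44% of all peaks. Markers of other cell types had peaks too. All 5 macrophage markers had peaks (2 of 29 enriched, 1 depleted), as had 4 of 5 smooth muscle markers (0 of 18 called). So had 2 of 6 Sertoli markers (1 of 11 enriched) and 1 of 6 germ cell markers (0 of 2 called). The part of muscle transcripts in the values of Myo18b was not tested. Myo18a, which ties the Golgi to actin, had 21 peaks, none called. They ranged from -0.68 to 1.45 around a median of 0.30, and 21 of 21 were above the median of all peaks.

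Myo7a had the most negative values of the motor genes. Of its 20 peaks, 16 were intronic, and the 3 depleted ones lay in introns near the 5′ end of a gene of 68469 nucleotides. At chr7:98113122-98113136 and chr7:98113137-98113168, on the minus strand and 6.39 and 6.37 kb from the 5′ end, 2 touching peaks had -4.66 (adjusted p = 1.4e-09) and -4.39 (adjusted p = 9.3e-09) by the authors' deposited table. Further downstream, 9.41 kb from the 5′ end, the third had -3.35 (adjusted p = 0.0028) by the authors' deposited table. The peak touching it had -2.63 (adjusted p = 0.079) by the authors' deposited table and was not called. The 17 uncalled peaks of Myo7a ranged from -2.63 to 2.13, and the gene median was -0.27. Further intronic peaks at -2.18 (adjusted p = 0.15) and -1.39 by the authors' deposited table were also low and not called.

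Myo10 had 19 peaks, 17 of them intronic, along 191124 nucleotides of chromosome 15. The enriched one, at chr15:25736973-25736992 in an intron, had 2.74 (adjusted p = 0.014) by the authors' deposited table. The nearest peak, 225 nucleotides upstream, had 1.41 by the authors' deposited table and was not called. The 18 uncalled peaks ranged from -1.91 to 1.46. Myo1c, a class I myosin that links membranes to actin, had 11 peaks with a median of 0.02. One of its 2 peaks in the 3′ UTR, at chr11:75673781-75673879, was depleted at -2.94 (adjusted p = 0.011) by the authors' deposited table. The other, 162 nucleotides upstream, had 0.58 and was not called.

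The remaining myosins had no called peak. Myo9b had 24 peaks from -2.16 to 0.86, in which coding peaks had a median of -0.56 and intronic ones -1.93. Myo5a, which carries melanosomes and vesicles, had 9 peaks with a median of -0.01 and a highest value of 1.71 by the authors' deposited table. Myo6, the myosin that walks towards the minus end of actin, had 8 peaks, all below 0, with a lowest value of -3.12 (adjusted p = 0.063) by the authors' deposited table.

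**Figure D2:**
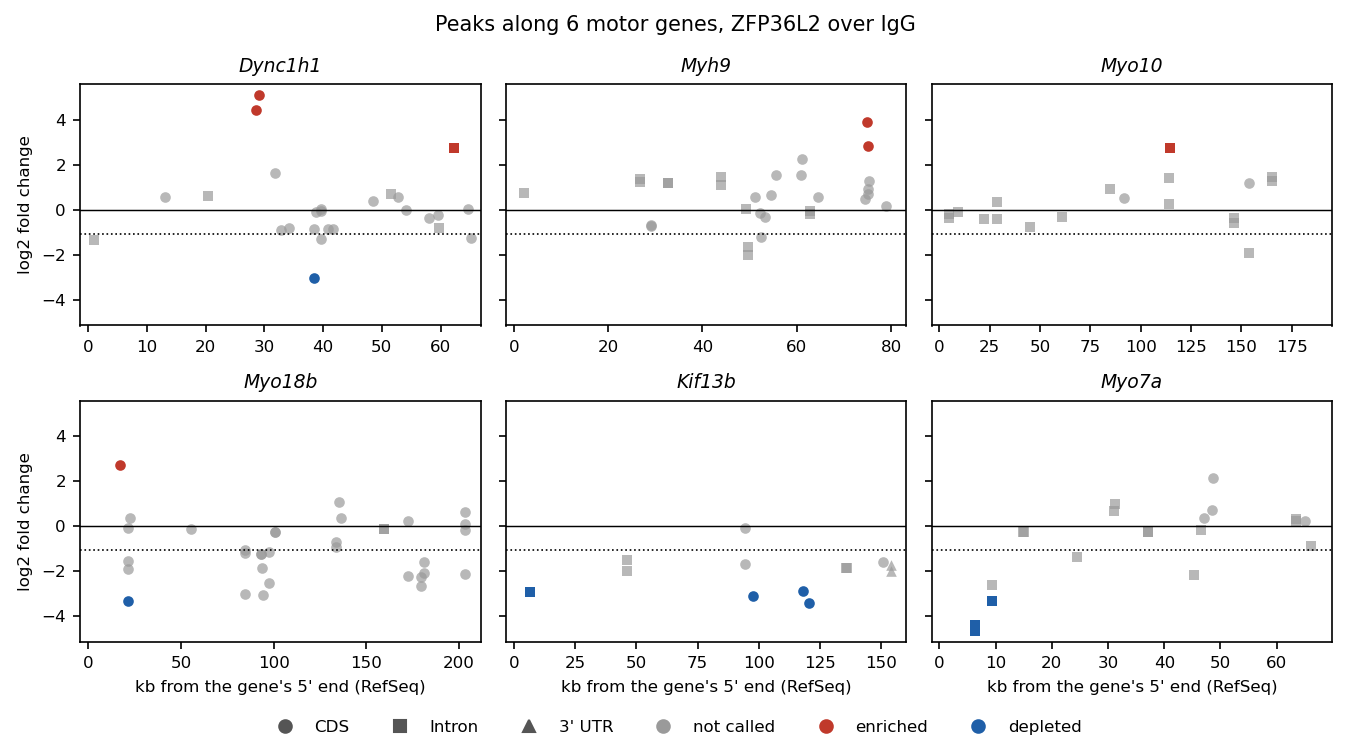
Each point is a peak, plotted by its distance in kb from the 5′ end of the RefSeq gene and its deposited log2 fold change of ZFP36L2 over IgG, for the 6 motor genes Dync1h1, Myh9, Myo10, Myo18b, Kif13b and Myo7a. Circles are coding, squares intronic and triangles 3′ UTR peaks, red is enriched, blue depleted and grey not called; the solid line is 0 and the dotted line the median of all peaks, -1.06. The 2 highest Dync1h1 peaks lie side by side near 29 kb, and the depleted Myo7a peaks lie within 9.41 kb of the 5′ end.

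Kinesin genes had no enriched peak. Of their 207 peaks, 4 (1.93%) were depleted, where 2.22% of all peaks were enriched and 5.44% depleted. By the authors' unadjusted p-values, 0 kinesin peaks were higher and 13 (6.28%) lower at a p under 0.05, against 2.94% and 11.2% of all peaks. All 4 depleted peaks belonged to Kif13b, which had 13 peaks along 157127 nucleotides of chromosome 14. They had -3.44 (adjusted p = 0.0013), -3.10 (adjusted p = 0.037), -2.95 (adjusted p = 0.0058) and -2.90 (adjusted p = 0.039) by the authors' deposited table. The first is the coding peak chr14:64772895-64772958, and the peaks at -3.10 and -2.90 are coding too, whereas that at -2.95 is intronic. Unlike those of Myo7a, these peaks were spread along the gene, from 6.47 to 120.43 kb from its 5′ end. All 13 peaks of Kif13b were below 0, and 12 of 13 were below the median of all peaks. Its close paralogue Kif13a also had 13 peaks, with a median of -1.56 against -1.88 and no call.

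Among the other transport kinesins, Kif1c, which serves Golgi and integrin traffic, had 24 peaks, the most of any kinesin. Its values ran from -1.46 to 1.72 around a median of 0.28, and 23 of 24 were above the median of all peaks. Kif1b, which moves mitochondria and synaptic vesicle precursors, had 23 peaks with a median of -1.17 and a lowest value of -2.88 (adjusted p = 0.15) by the authors' deposited table. Kif5b, the ubiquitous conventional kinesin, had 3 peaks at 0.47, -0.71 and -1.39, and Kif3a, a motor of cilium assembly, had 4 from -1.43 to 1.13, by the authors' deposited table.

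The mitotic kinesins act on the spindle and in cytokinesis. The 7 with a peak had 31 peaks, none called (0 higher and 2 lower at an unadjusted p under 0.05), with a median of -1.13. Of all peaks, 2.22% were enriched and 5.44% depleted, and 2.94% were higher and 11.2% lower at that unadjusted p. At such shares few calls could be looked for among so few peaks. Kif23, which builds the central spindle, was the only one with a median above 0 as deposited, with 3 coding peaks at 1.25, 0.40 and 0.38 by the authors' deposited table. Kif18b had the lowest of these values, -2.66 (adjusted p = 0.13) by the authors' deposited table. Kif11, the motor that pushes spindle poles apart, had no peak in the table. The 9 other kinesins, which include microtubule regulators and cilium proteins such as Kif21a, Kif26b, Kifc3 and Kif7, had 55 peaks, none called (0 higher and 2 lower at an unadjusted p under 0.05), with a median of -1.51.

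**Figure D3:**
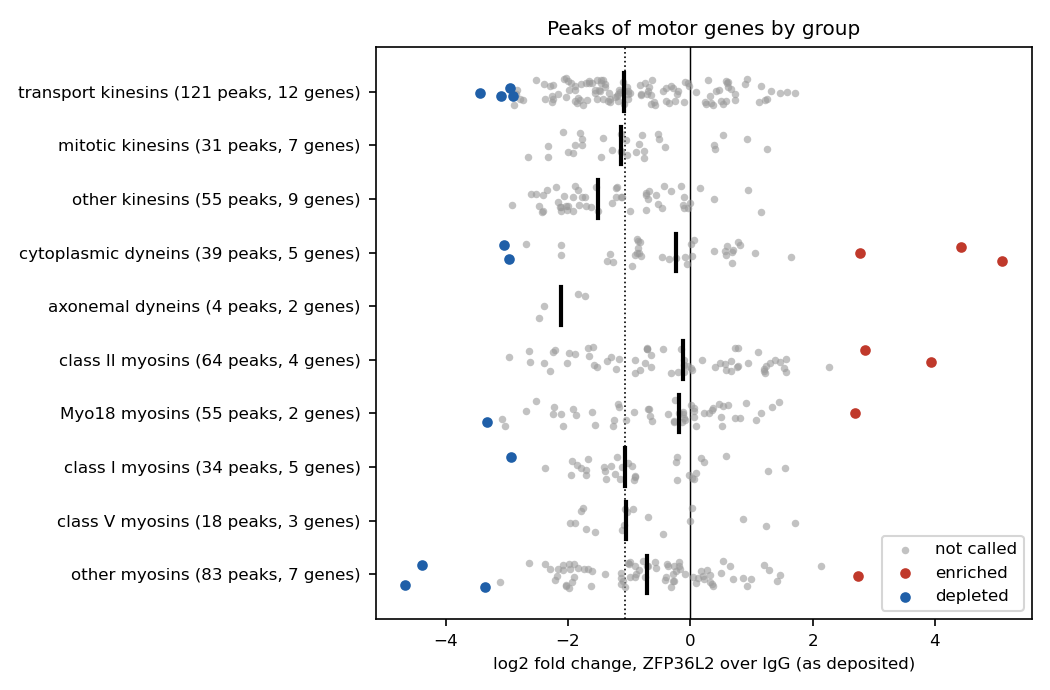
Points are the 504 motor peaks by their deposited log2 fold change of ZFP36L2 over IgG in 10 groups of motor genes, spread vertically at random within a group; red is enriched, blue depleted and grey not called. Thick bars are group medians, the solid line is 0 and the dotted line the median of all peaks. Red points occur in the cytoplasmic dynein, class II, Myo18 and other myosin groups, and none in the kinesin groups.

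By class, the median log2 fold change was -1.15 for kinesin, -0.47 for dynein and -0.64 for myosin peaks, against -1.06 for all peaks. After all values were centred on the median of all peaks, these became -0.09, 0.59 and 0.43. Above the median of all peaks lay 95 of 207 kinesin peaks (45.9%), 31 of 43 dynein peaks (72.1%) and 161 of 254 myosin peaks (63.4%). The class medians have no error, since peaks of a gene are not replicates, and 26 of the 43 dynein peaks were those of Dync1h1. Of the 23 genes with 8 or more peaks, 5 had a median above 0 as deposited, namely Myh9, Myo18a, Kif1c, Dync1li2 and Myo1c, and 14 had one above the median of all peaks. Neighbours in this order overlapped widely. The interquartile range ran from -0.12 to 1.29 in Myh9, from -0.10 to 0.73 in Myo18a and from -0.30 to 0.61 in Kif1c. At the low end, Kif21a had a median of -2.13 and an interquartile range from -2.41 to -1.51.

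**Figure D4:**
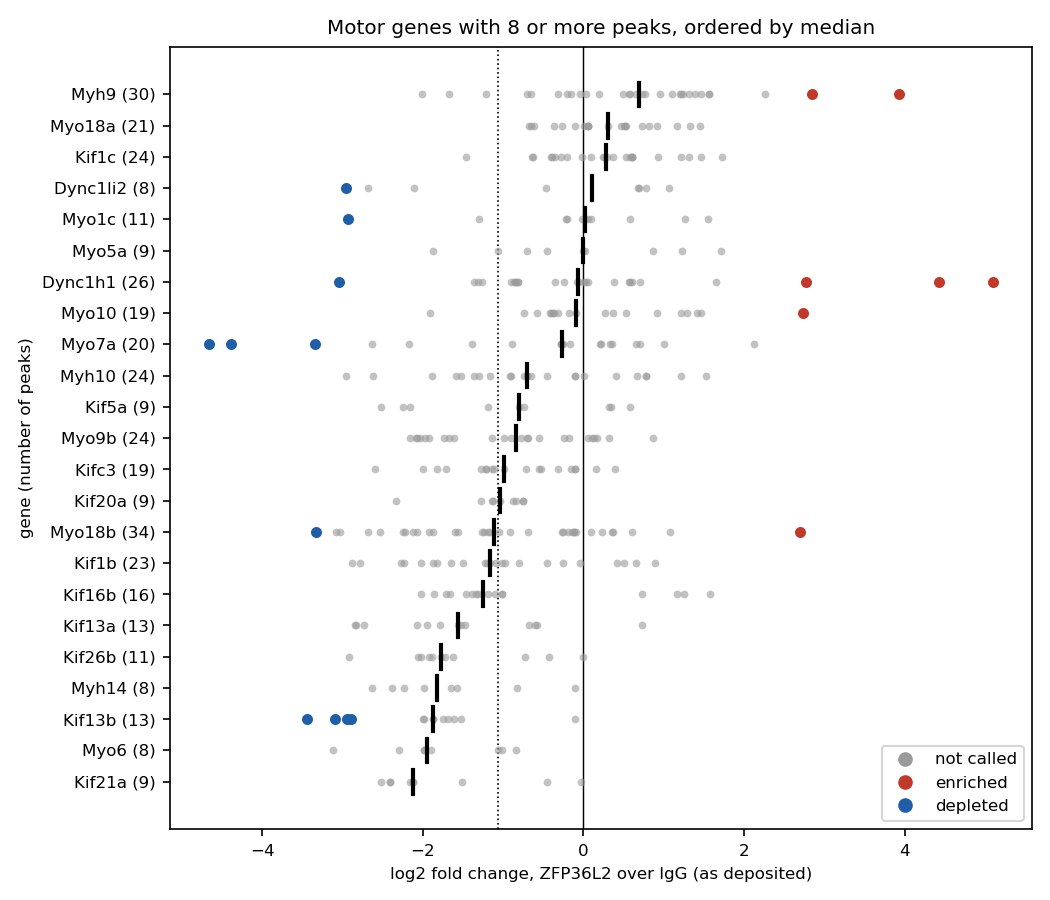
The 23 motor genes with 8 or more peaks are ordered by their median log2 fold change of ZFP36L2 over IgG, with the number of peaks in brackets. Each point is a peak (red enriched, blue depleted, grey not called), thick bars are medians, the solid line is 0 and the dotted line the median of all peaks; Myh9 stands at the top with 0.70 and Kif21a at the bottom with -2.13.

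The tracks, light chains and adaptors of the motors were looked up as 7 lists of 87 genes, of which 63 had peaks. Of their 433 peaks, 6 (1.39%) were enriched and 14 (3.23%) depleted, against 2.22% and 5.44% of all peaks. Their median log2 fold change was -0.57.

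Over all genes of the table, 5.04% had an enriched and 17.3% a depleted peak, the shares against which the following gene counts stand. Kinesin light chains and adaptors had 2 genes with an enriched and 2 with a depleted peak among 13. Mapk8ip3, an adaptor of axonal transport, had 1 of 14 peaks enriched, at 3.99 (adjusted p = 3.0e-07, intron) by the authors' deposited table, with a gene median of -0.51. Trak2, which attaches mitochondria to kinesin, had 1 of 16 enriched, at 3.43 (adjusted p = 6.3e-06, coding) by the authors' deposited table, with a gene median of 0.13. Klc4, a kinesin light chain, had 2 peaks, both depleted, down to -6.35 (adjusted p = 1.7e-24, coding) by the authors' deposited table, a lower value than that of any motor peak. Dynactin, the dynein cofactor, had 1 gene with an enriched peak among 9. This was Actr1a, the actin-related protein of its filament, with 1 of 11 peaks enriched and a gene median of -0.07. The enriched peak had 3.45 (adjusted p = 1.7e-05) in the 3′ UTR by the authors' deposited table. The 3 dynein light chain genes with a peak had 4 peaks, none called (0 in either direction at an unadjusted p under 0.05). Of all peaks, 2.22% were enriched and 5.44% depleted, so 4 peaks are too few to read.

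Dynein regulators and activating adaptors had no gene with an enriched peak among 12 (5.04% of all genes had one) and 4 with a depleted one (17.3% of all genes). By peak, 5 of 87 (5.75%) were depleted, near the 5.44% of all peaks. Those with the smallest adjusted p were in Ccdc88a (-3.59, adjusted p = 2.3e-04), Bicd1, which couples dynein to vesicles (-3.41, adjusted p = 6.3e-04), and Pafah1b1, the lissencephaly protein that activates dynein (-2.68, adjusted p = 0.011), by the authors' deposited table. Depleted were 1 of 9 peaks of Ccdc88a, 1 of 3 of Bicd1 and 2 of 12 of Pafah1b1, with gene medians of 0.55, -1.10 and -1.73. Light chains, kinases and the phosphatase of myosin had no gene with an enriched peak and 2 with a depleted one among 13, and 5 of their 131 peaks (3.82%) were depleted. The 2 genes were the kinases Rock1, with 2 of 9 peaks depleted, and Cdc42bpa, with 3 of 15. Their lowest peaks had -4.10 (adjusted p = 3.3e-06) and -3.65 (adjusted p = 0.001) by the authors' deposited table, with gene medians of -1.32 and -0.52. Tubulins, the subunits of microtubules, had 2 genes with an enriched peak and 1 with a depleted one among 12, by peak 2 of 48 (4.17%) and 1 of 48 (2.08%). Enriched were 1 of 3 peaks of Tuba1c (4.62, adjusted p = 2.0e-16) and 1 of 10 of Tuba4a (2.90, adjusted p = 0.011), both coding, with values by the authors' deposited table. Of the 4 peaks of Tubd1, 1 intronic peak was depleted, at -2.91 (adjusted p = 0.006) by the authors' deposited table. Actb, cytoplasmic actin, had 1 of 8 peaks enriched at 1.30 (adjusted p = 7.6e-04) by the authors' deposited table, with a gene median of 1.04. All 8 peaks lay between 0.51 and 1.53. At an unadjusted p under 0.05, 5 of the 8 were higher, against 2.94% of all peaks. Tubulin and actin genes have near-identical copies, so these 2 lists are uncertain.

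RefSeq lists 90 protein-coding genes whose symbols match the rule, and 34 of them had no peak in the table. They include 10 of the axonemal heavy chains, the mitotic motors Kif11, Kif15, Kif18a, Kif2c and Kifc1, and the tissue-restricted myosins Myo3a, Myo7b and Myo1a. A gene without a peak gives no value here, which says nothing about whether its RNA was bound or present.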

How the data were processed

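The authors deposited 1 table of peaks. Per the file headers it gives position, strand, gene, region, a log2 fold change, and p-values and adjusted p-values as −log10 values, which were converted back here. The direction, ZFP36L2 over IgG, follows the table's name. The submitters' processing notes name UMI-tools 1.1.1, cutadapt 3.2, STAR 2.7.7a, DESeq2 1.34.0 and mm10, without roles. How peaks were called or pooled, and what role inputs and scaling had, the sources used here leave unstated. The table has 0 columns of values per library, so depth is unknown and the planned count tests were not run; no test of groups was made and the authors' adjusted p-values were used. A planned motif count was not made, since no genome was used.

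Peaks were selected by gene name and counted with Python 3.11.15 and pandas 2.3.3. Only the rule for enriched and depleted calls and the percent calculation were checked on simulated data. Distances use the RefSeq spans of GRCm38.p6, which matched 56 of 56 genes and held 503 of 504 peaks. None of the 504 peaks carried a second gene name.

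The genes, lists and alternatives (thresholds, centring, regions, merged or single peaks) were chosen with earlier results of these data known. The genes named are those with an enriched peak, the 12 with the most negative depleted peaks (6 had any), those with the most peaks in all and per class, up to 3 per pathway list by adjusted p, and Kif5b, Kif1b, Kif3a, Kif11, Dync1h1, Dync2h1, Myh9, Myh10, Myh11, Myh14, Myo5a, Myo6 and Myo10. Others were named after their values were seen.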

Additional observations from a re-analysis of the deposited data

How the results depend on the processing

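The counts of 7 enriched and 11 depleted motor peaks and of 4 and 6 genes were the same with a minimum log2 fold change of 2, with no minimum, with values centred on the median of all peaks, and with peaks of 1 gene name only. The smallest called motor value was 2.70 in size, so neither a minimum of 2 nor centring could remove a call. Centring kept the authors' adjusted p-values, and no motor peak carried a second gene name. These settings therefore say little about how firm the counts are. At an adjusted p under 0.01, 4 peaks in 2 genes were enriched (0.794%, against 1.9% of all peaks) and 7 peaks were depleted (1.39% against 3.36%). With 1 peak per gene, that of the smallest adjusted p, 3 peaks were enriched (5.36% of 56, against 4.83% over the table) and 5 depleted (8.93% against 16.4%). Outside introns 5 of 339 motor peaks were enriched (1.47%, against 2.26% over the table) and 6 depleted (1.77% against 4.28%). Merging touching peaks left 6 enriched and 10 depleted, for which no share over all peaks was computed. The median log2 fold change of motor peaks, -0.84 as deposited, became 0.22 after centring, -0.73 outside introns and -1.98 with 1 peak per gene, a setting that picks low p-values. No paired analysis was possible because the table holds no values per library, and leaving out a library was not run for the same reason.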

Other observations

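Touching peaks of 1 gene did not always share a call. Of all 504 motor peaks, 275 (54.6%) touched another peak, against 53.2% of all peaks, so counts of peaks are not counts of separate stretches. Of the 18 called motor peaks, 7 belonged to 5 runs of touching peaks of 47 to 186 nucleotides, with 12 peaks in all. In 4 of these 5 runs a called peak bordered an uncalled one. The widest step was in Dync1li2, where 8 depleted nucleotides at -2.96 border a coding peak at -0.47 in the authors' deposited table. In Dync1h1 a depleted peak at -3.04 borders an uncalled peak at -0.85 in the authors' deposited table.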
